A study of Danio rerio with 12 samples.

Results

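The gene epas1b encodes a HIF-2 alpha subunit, one of the hypoxia-inducible factors (HIF), and its RNA was followed here through the first week after amputation of the adult zebrafish ventricle, together with its duplicate epas1a and with hif1ab, a HIF-1 alpha gene. The members are all probe sets to which the platform annotation gives these symbols, 5 of 15502 probe sets besides controls and 3 of 8793 named genes. A single probe set reads epas1b, 1 reads hif1ab and 3 read epas1a. The gene epas1b was chosen by its level in the control hearts of these arrays, which was lower after amputation than before it. For the 3 genes, comparisons that use control arrays are therefore given as values without a limma test. Their limma p-values are given only between times within the TCDD-treated hearts. These are no independent support, since results of all these arrays were known when the gene was chosen. The authors' own p-values, quoted at the end, use control arrays and are no support either.

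HIF transcription factors pair an oxygen-regulated alpha subunit with a constitutive beta subunit, ARNT. When oxygen is present, prolyl hydroxylases of the egln family mark the alpha subunit, the VHL ubiquitin ligase binds it and it is destroyed, so that much of the control lies in the protein, which these arrays do not measure. In mammals HIF-1 alpha is best known for switching on glycolysis, and HIF-2 alpha for its roles in endothelium and in erythropoietin and iron metabolism. Hypoxia is known to act in regeneration of the zebrafish heart. The aryl hydrocarbon receptor (AHR), which binds the dioxin TCDD, belongs to the same bHLH-PAS protein family and also pairs with ARNT.

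Adult AB-strain fish were given TCDD at 70 ng/g or vehicle by intraperitoneal injection 1 day before surgery, and the ventricle apex was collected without amputation (0 hpa), at 6 hours (6 hpa) or at 7 days (7 dpa) after it. The 6 groups are thus Control 0 hpa, Control 6 hpa, Control 7 dpa, TCDD 0 hpa, TCDD 6 hpa and TCDD 7 dpa, each with 2 Affymetrix arrays, and each array holds RNA pooled from 10 hearts. The sample labels list the controls under treatment as none, while the protocol names a vehicle injection. After surgery the apex is the piece with the amputation plane and the regenerate, so an amputated sample does not hold the same tissue as an unamputated one. All arrays hold bulk tissue, in which fewer cells of a type and less RNA per cell cannot be told apart. Levels are log2 of the authors' RMA intensities, and levels of different probe sets are not comparable with each other.

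The median of an array lay between 3.26 and 3.53 log2 units, and no detection calls came with them, so that signal above background is not established for a level near this median. Arrays of a group correlated at 0.958 to 0.979 over all probe sets except those of TCDD 6 hpa, at 0.901. TCDD 6 hpa replicate 1 had a 3′ minus 5′ difference of 3.35 log2 units at the acta1 control probe sets, against -0.09 to 2.07 on the other 11 arrays. The intensities of this array also spanned a narrower range. Its lower quartile was 2.94, against 2.65 to 2.83 on the other 11 arrays, and its upper quartile 4.44, against 4.535 to 4.87. The level that bounds its top percentile was 9.88, against 10.41 to 10.64. A control RNA added during preparation (DapX, 3′ probe set) read 5.67 to 6.61 on the 4 arrays of 7 dpa and at most 3.99 on the other 8, so preparation and time cannot be told apart there. Another added control (BioB, 5′ probe set) read 8.20 on Control 7 dpa replicate 2 and 9.40 on TCDD 7 dpa replicate 2, against 5.68 to 6.77 elsewhere. At 7 dpa epas1b, hif1ab and the brightest epas1a probe set each read lower on these replicates than on replicate 1. The part of this difference between arrays was not tested. The 11 measured cardiomyocyte markers all exceeded 5 log2 units on some array, so the labelled tissue's own markers were present.

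The gene epas1b was highest in the unamputated control apex and lower in each of the 5 other groups. Its level was 8.83 and 8.43 on the Control 0 hpa arrays, 5.50 and 4.98 at Control 6 hpa, and 6.26 and 5.46 at Control 7 dpa. Each amputated control array lay below both unamputated ones. The difference from Control 0 hpa was -3.39 ± 0.48 log2 units (limma SE) at 6 hpa, a 10.5-fold lower level, and -2.76 ± 0.48 at 7 dpa, a 6.79-fold lower level. Only 3 of the 15502 probe sets had a more negative difference at 6 hpa, and 9 had one at 7 dpa. These are the values for which the gene was chosen.

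In the TCDD-treated fish epas1b was again lower after amputation. The TCDD 6 hpa arrays enter the authors' comparison in which epas1b ranks first, described at the end, so the p below is not independent of the choice. Its level was 6.92 and 6.99 at TCDD 0 hpa, 4.18 and 4.95 at TCDD 6 hpa, and 6.21 and 4.75 at TCDD 7 dpa. All 4 amputated TCDD arrays lay below both unamputated ones, and the 7 dpa arrays were the least alike. The 7 dpa array at 4.75 is replicate 2, which had the highest BioB reading. The lowest value, 4.18, is on TCDD 6 hpa replicate 1, the array with the outlying acta1 3′ minus 5′ difference of 3.35. The part of that array's RNA quality and of its narrower intensity range in the fall was not tested. From 0 to 6 hpa epas1b fell by 2.39 ± 0.48 log2 units, 5.23-fold (95% interval of the difference -3.48 to -1.30, limma adjusted p = 0.0461), with 35 probe sets falling further. In this comparison 1.75% of all named genes were called lower, and epas1b was the only one of the 3 HIF genes called. The call is narrow: it was lost when the model was fitted to the arrays of these 2 groups alone (limma adjusted p = 0.178) and after centring of the arrays (limma adjusted p = 0.07027). With 1 array left out at a time the difference ranged from -2.77 to -2.002 log2 units, and the adjusted p stayed below 0.05 in 3 of 12 refits. The 3 refits that kept it left out TCDD 6 hpa replicate 2 or either TCDD 7 dpa array. Without TCDD 6 hpa replicate 1 the difference was -2.002 (limma adjusted p = 0.172), without either TCDD 0 hpa array the limma adjusted p was 0.179 or 0.252, and without any 1 control array it was 0.0594 to 0.0828.

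At 7 dpa the TCDD hearts were at -1.47 ± 0.48 log2 units from TCDD 0 hpa (limma adjusted p = 0.201), and at 0.91 ± 0.48 above TCDD 6 hpa (limma adjusted p = 0.299), neither past the threshold of 0.05. None of the 3 genes was called by limma in these comparisons, where 2.93% and 6.81% of named genes were, and at an unadjusted p below 0.05 there were 2 of 3 (epas1b and epas1a) in the first and 0 in the second, where 15.3% and 24.2% of named genes were. The 95% intervals of these differences ran from -2.56 to -0.38 and from -0.18 to 2.00.

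As a value only, epas1b was lower with TCDD in unamputated hearts. The 2 TCDD 0 hpa arrays lay below the 2 Control 0 hpa arrays by -1.67 ± 0.48 log2 units in the mean, 3.19-fold, with 11 of 15502 probe sets further down. After amputation the TCDD arrays differed from the controls by -0.67 ± 0.48 at 6 hpa, where the groups were apart only by 4.98 against 4.95, and by -0.38 ± 0.48 at 7 dpa, where they overlapped. The fall after amputation was smaller in TCDD than in control hearts by 1.001 ± 0.68 log2 units at 6 hpa and by 1.29 ± 0.68 at 7 dpa. Both of these differences, and the -1.67 at 0 hpa with its rank, share the high Control 0 hpa arrays with the choice of the gene. An effect of TCDD on epas1b was not tested.

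Ordered by mean level, epas1b ran from Control 0 hpa (8.63 ± 0.28, SD, n = 2) to TCDD 0 hpa (6.95 ± 0.05), Control 7 dpa (5.86 ± 0.57), TCDD 7 dpa (5.48 ± 1.04), Control 6 hpa (5.24 ± 0.36) and TCDD 6 hpa (4.57 ± 0.54). The arrays of the 2 unamputated groups are apart from each other and from all amputated ones. Among the amputated groups, the arrays of Control 7 dpa and TCDD 7 dpa overlap, as do those of TCDD 7 dpa and Control 6 hpa. The arrays of 6 hpa and 7 dpa also overlap within each treatment. In controls 5.46 at 7 dpa lies below 5.50 at 6 hpa, and with TCDD 4.75 at 7 dpa lies below 4.95 at 6 hpa.

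**Figure D1:**
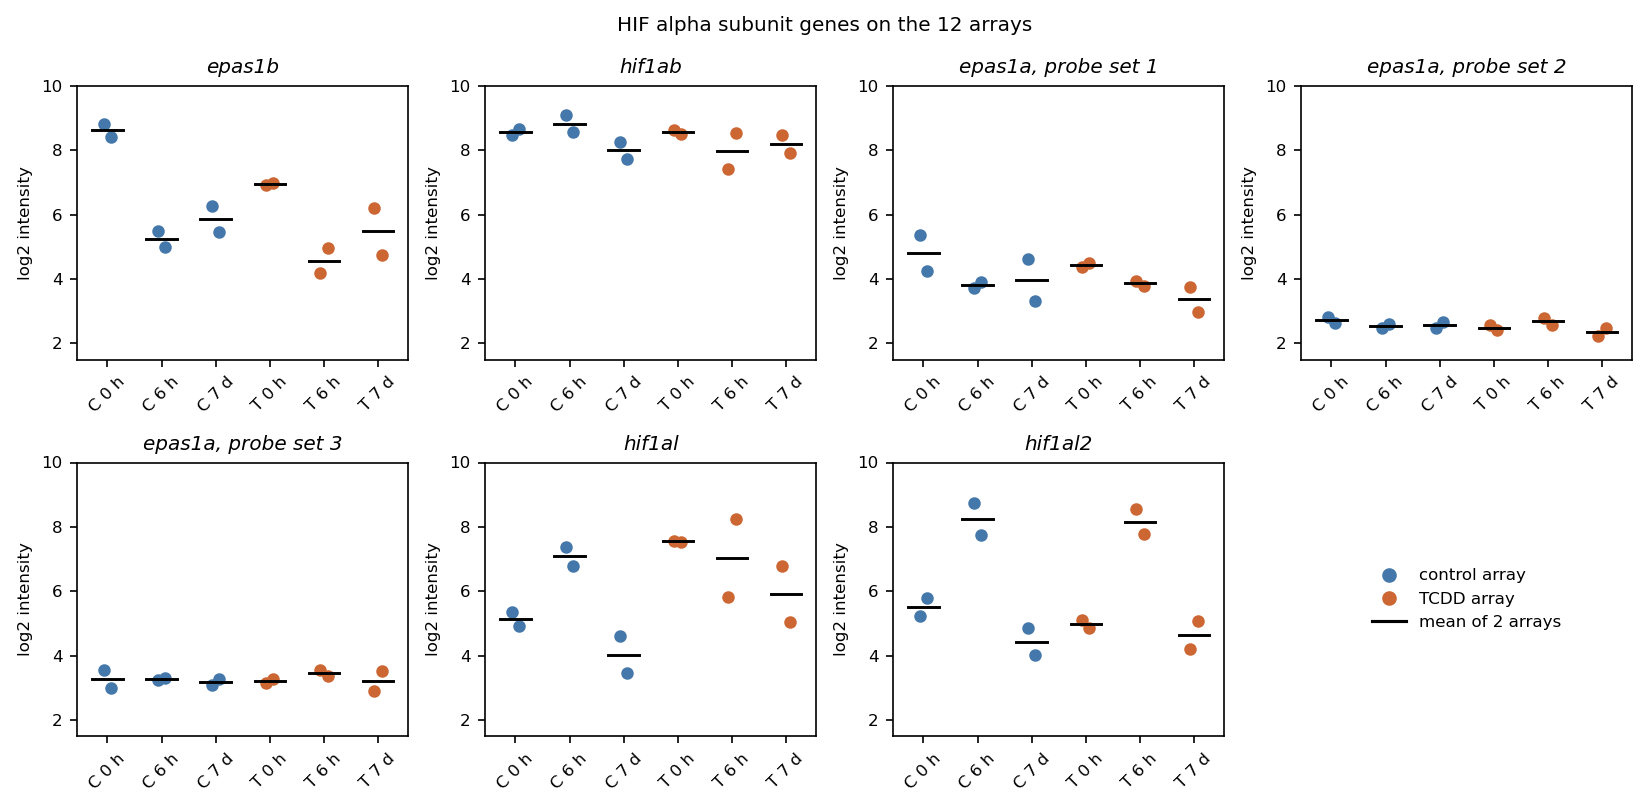
Level of each HIF alpha subunit gene (log2 intensity) on the 12 arrays, by group (C, control; T, TCDD; 0 h, unamputated; 6 h and 7 d after amputation). Points are single arrays of 10 pooled hearts and bars are means of 2 arrays; the epas1b arrays of both unamputated groups, at 6.92 or more, lie above all amputated ones, at 6.26 or less.

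The HIF-1 alpha gene hif1ab stayed within a far narrower range than epas1b. Its level was 8.48 and 8.67 at Control 0 hpa, 9.09 and 8.58 at Control 6 hpa, and 8.27 and 7.73 at Control 7 dpa. The TCDD hearts read 8.63 and 8.49 at 0 hpa, 7.43 and 8.54 at 6 hpa, and 8.46 and 7.93 at 7 dpa. The lowest of these, 7.43, is on TCDD 6 hpa replicate 1, the array that stands apart in its 3′ to 5′ control.

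Within the TCDD hearts no difference of hif1ab passed the test. It was at -0.58 ± 0.37 log2 units at 6 hpa (limma adjusted p = 0.463), with a 95% interval from -1.42 to 0.26. That difference was -0.01 under quantile normalization of the arrays, and -0.03 without TCDD 6 hpa replicate 1. It was at -0.37 ± 0.37 at 7 dpa (limma adjusted p = 0.869). Between 6 hpa and 7 dpa the difference was 0.21 ± 0.37 (limma adjusted p = 0.764), and its sign turned without that array, to -0.34. As values only, hif1ab differed from Control 0 hpa by 0.26 ± 0.37 at 6 hpa and -0.57 ± 0.37 at 7 dpa. TCDD differed from control by -0.01 at 0 hpa, -0.85 at 6 hpa and 0.19 at 7 dpa, each ± 0.37. Ordered by level, Control 6 hpa was highest at 8.83 ± 0.36 and TCDD 6 hpa lowest at 7.98 ± 0.78 (SD, n = 2), and of the neighbours in between only TCDD 0 hpa and TCDD 7 dpa did not overlap.

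The duplicate of epas1b, epas1a, was dim. Its brightest probe set read 5.37 and 4.26 at Control 0 hpa, 3.74 and 3.90 at Control 6 hpa, and 4.62 and 3.31 at Control 7 dpa. It read 4.39 and 4.50 at TCDD 0 hpa, 3.94 and 3.80 at TCDD 6 hpa, and 3.75 and 2.98 at TCDD 7 dpa. The unamputated arrays tended to the top of this range, but groups next to each other in mean level overlapped, and so did Control 0 hpa and Control 7 dpa. In TCDD hearts its difference from 0 hpa was -0.57 ± 0.47 log2 units at 6 hpa (limma adjusted p = 0.572) and -1.08 ± 0.47 at 7 dpa (limma adjusted p = 0.388), and from 6 hpa to 7 dpa -0.50 ± 0.47 (limma adjusted p = 0.556). Control hearts were at -0.999 ± 0.47 at 6 hpa and -0.85 ± 0.47 at 7 dpa from Control 0 hpa. The readings of 3.31 at Control 7 dpa and 2.98 at TCDD 7 dpa lie below their arrays' medians of 3.385 and 3.366. The 7 dpa differences thus rest partly on levels where signal above background is not established.

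The 2 other probe sets of epas1a stayed near the level of an array's median or below it on all arrays. The dimmest lay between 2.24 and 2.81 and the other between 2.91 and 3.55. Their differences between groups ran from -0.33 to 0.25 log2 units, and they do not share the direction of the brightest probe set in TCDD hearts at 6 hpa, at 0.20 ± 0.17 and 0.25 ± 0.25. For epas1a only the brightest probe set thus read well above its array's median, and not on every array. The probe set between 2.91 and 3.55 passed the median by little on some arrays, as at 3.553 against 3.35 on Control 0 hpa replicate 1.

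The array also reads 2 further genes of the alpha subunit family, hif1al, for which RefSeq lists the synonym Hif-3alpha, and hif1al2. At 6 hpa hif1al2 was high where epas1b was low. It read 5.23 and 5.79 at Control 0 hpa, 8.74 and 7.75 at Control 6 hpa and 4.85 and 4.02 at Control 7 dpa. With TCDD it was 5.10 and 4.87 at 0 hpa, 8.54 and 7.78 at 6 hpa and 4.22 and 5.08 at 7 dpa. At 6 hpa all 4 arrays, of both treatments, lay above all 8 others.

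The gene hif1al2 rose from 0 to 6 hpa by 2.74 ± 0.45 log2 units in controls (6.66-fold, limma adjusted p = 0.0461) and by 3.18 ± 0.45 in TCDD hearts (9.06-fold, limma adjusted p = 0.0222). From 6 hpa to 7 dpa it fell by 3.81 ± 0.45 in controls (limma adjusted p = 0.00286) and by 3.51 ± 0.45 in TCDD hearts (limma adjusted p = 0.00341). Both falls held in 12 of 12 refits with 1 array left out, the rise in TCDD hearts in 9, and the rise in controls in 2, with an adjusted p of up to 0.298. The erythrocyte markers moved with it: the log2 of their summed intensity over 9 genes was 13.9 to 14.4 on the 6 hpa arrays of both treatments and 12.7 to 13.5 on all others. Their part in the rise of hif1al2 was not tested.

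The gene hif1al read 5.37 and 4.93 at Control 0 hpa, 7.38 and 6.79 at Control 6 hpa, and 4.59 and 3.45 at Control 7 dpa. With TCDD it was 7.57 and 7.54 at 0 hpa, 5.81 and 8.25 at 6 hpa, and 6.79 and 5.05 at 7 dpa. The unamputated TCDD arrays lay above the unamputated control arrays, the opposite order to epas1b. That difference, 2.40 ± 0.79 log2 units, did not pass over all probe sets (limma adjusted p = 0.9997, unadjusted 0.0144), and neither did the difference of 1.93 ± 0.79 between Control 6 hpa and Control 0 hpa (limma adjusted p = 0.432).

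**Figure D2:**
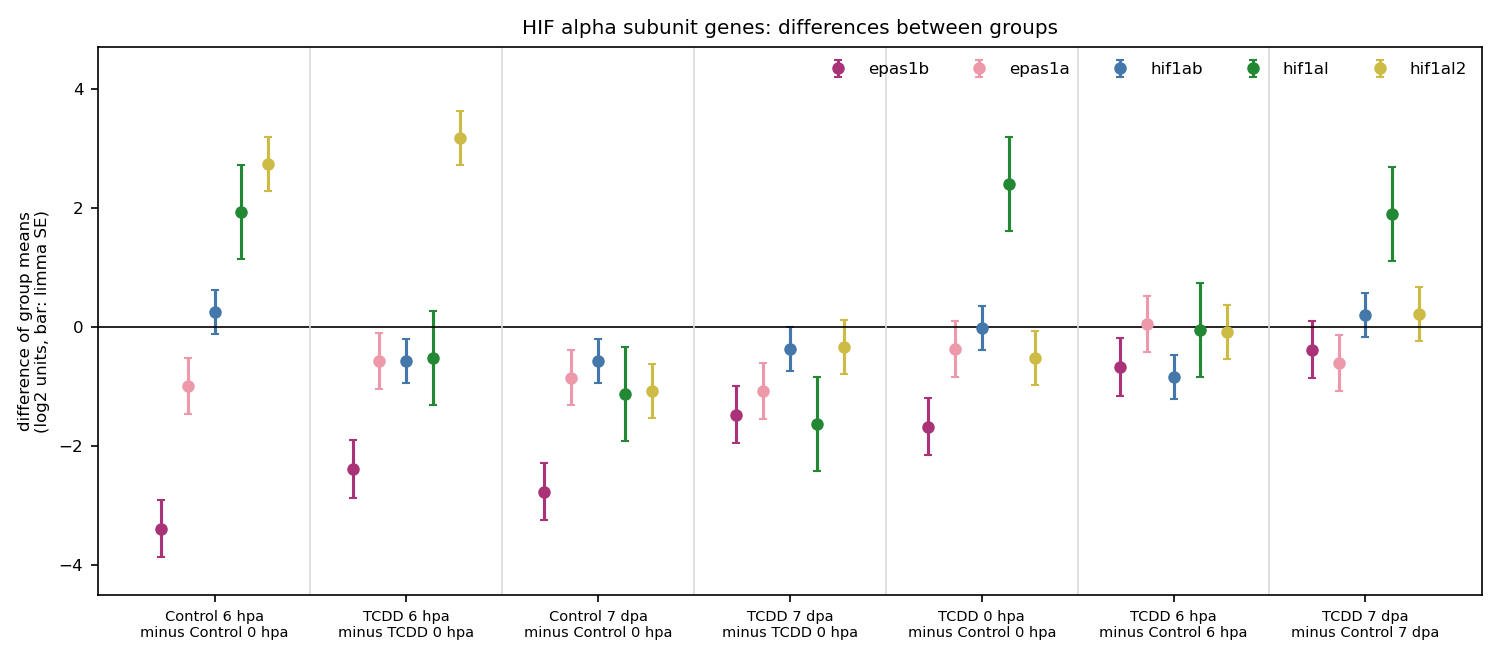
Differences of group means (log2 units) of the HIF alpha subunit genes in 7 comparisons, with limma standard errors as bars. For epas1b the points after amputation lie at -3.39, -2.39, -2.76 and -1.47 and for hif1al2 at 6 hpa at 2.74 and 3.18, while hif1ab lies between -0.85 and 0.26 throughout.

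The partner and the dioxin receptor genes gave few usable values. The genes arnt, hif1aa, vhl and cited2 had no probe set with their symbol alone. The measured beta subunit gene, arnt2, lay between 2.83 and 4.15 at its brighter probe set and showed no call. TCDD exposure itself was plain at cyp1a, the classic AHR target: 2.71 to 3.64 on the 6 control arrays and 9.38 to 12.2 on the 6 TCDD arrays. Its rise with TCDD was 8.33 ± 0.47 log2 units at 0 hpa, 7.35 at 6 hpa and 8.87 at 7 dpa (limma adjusted p = 0.000514, 0.00116 and 0.00015). The receptor gene ahr2, the main AHR of zebrafish, was 7.45 and 7.21 at Control 0 hpa and 8.64 and 8.27 at TCDD 0 hpa. Its difference there, 1.12 ± 0.52, did not pass (limma adjusted p = 0.9997), and neither did its differences at 6 hpa from 0 hpa, -1.18 ± 0.52 in controls (limma adjusted p = 0.489) and -1.69 ± 0.52 in TCDD hearts (limma adjusted p = 0.138).

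Among 17 measured genes of oxygen sensing and HIF turnover, none was called by limma in any comparison of times within a treatment or of TCDD with control at 1 time. At an unadjusted p below 0.05 there were between 0 and 5 of 17, the 5 in TCDD hearts at 6 hpa, where 19.2% of all named genes were. The share of all named genes called in either direction was 0.591% at Control 6 hpa and 2.37% at Control 7 dpa against 0 hpa, and 4.53% between these times. In TCDD hearts it was 2.3% at 6 hpa and 2.93% at 7 dpa against 0 hpa, and 6.81% between them. For TCDD against control it was 0.0341% at 0 hpa, 0.0227% at 6 hpa and 0.136% at 7 dpa. The nearest to a call was p4htma, a transmembrane prolyl hydroxylase, which read 4.26 and 4.58 at Control 0 hpa and 3.57 to 3.67 on the 4 amputated control arrays. In TCDD hearts it was at -0.96 ± 0.21 log2 units at 6 hpa (limma adjusted p = 0.0582) and -0.94 ± 0.21 at 7 dpa (limma adjusted p = 0.0603). The HIF prolyl hydroxylase gene egln1b was 4.59 and 4.33 at Control 0 hpa and 5.63 and 5.69 at TCDD 0 hpa, a difference of 1.20 ± 0.35 that did not pass (limma adjusted p = 0.9997). The gene egln3, itself induced by HIF in mammals, differed by 1.54 ± 0.78 in controls and 1.63 ± 0.78 in TCDD hearts at 6 hpa (limma adjusted p = 0.587 and 0.328). The asparaginyl hydroxylase gene hif1an stayed between 4.66 and 5.50 on all arrays.

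Of the 29 measured HIF targets of glycolysis, few were called against 0 hpa, and those called were lower after amputation. In controls none was called at 6 hpa by limma, where 0.591% of named genes were called, with 7 at an unadjusted p below 0.05, where 11.8% of named genes were, and a median difference of -0.13 log2 units against 0.01 over all genes. At Control 7 dpa 1 of 29 fell, ldhba, a lactate dehydrogenase gene, by 1.11 ± 0.22 (limma adjusted p = 0.0418), where 0.307% of named genes were called lower. At an unadjusted p below 0.05 there were 9 of 29 there, where 14.6% of named genes were. At TCDD 6 hpa 16 of 29 had an unadjusted p below 0.05, where 19.2% of named genes did. The median over the list was -0.87 against 0.03. This list is bright, with mean levels of 7.86 and 7.78 on the TCDD 0 hpa arrays, whose medians over all probe sets were 3.30 and 3.28. The values over all named genes are therefore not matched to the list in brightness. By a limma call 3 of 29 fell, against the background of 1.75% given above, which is not matched either. They were gpia, phosphoglucose isomerase, by 1.55 ± 0.31 (limma adjusted p = 0.0443), tpi1a, triosephosphate isomerase, 2.83-fold (limma adjusted p = 0.0222), and ldhba by 1.37 ± 0.22 (limma adjusted p = 0.0279).

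Much of the shift at TCDD 6 hpa sits on 1 array. The lactate dehydrogenase gene ldha, for example, read 6.99 on TCDD 6 hpa replicate 1 and 9.01 on replicate 2, against 9.08 and 9.19 at TCDD 0 hpa. The list median of differences from the Control 0 hpa mean was -1.29 on replicate 1 and -0.31 on replicate 2. On the TCDD 0 hpa arrays it was 0.02 and -0.08. The cardiomyocyte markers were lower beside this list. At TCDD 6 hpa the median difference of the 11 genes was -0.83. All 11 were below 0, where 53.3% of named genes were above it. None was called lower by limma, where 1.75% of named genes were. At an unadjusted p below 0.05 there were 8, where 19.2% of named genes were. At Control 7 dpa the median was -0.94, with 10 of 11 below 0, where 47.8% of named genes were above it. There 2 were called lower, where 0.307% of named genes were. These markers are bright too, with mean levels of 11.03 and 10.74 on the TCDD 0 hpa arrays, so the shares of named genes are not matched to them in brightness. The part of the RNA quality of TCDD 6 hpa replicate 1, of its narrower intensity range and of these markers in the falls was not tested. At TCDD 7 dpa 2 of 29 fell, eno3, an enolase gene, by 1.43 ± 0.27 (limma adjusted p = 0.0328) and tpi1a by 1.16 ± 0.21 (limma adjusted p = 0.0248), where 0.421% of named genes were called lower. At an unadjusted p below 0.05 there were 6 of 29 there, where 15.3% of named genes were. Without either TCDD 0 hpa array the list had no call at 6 hpa or at 7 dpa. The largest positive value of the list was at pfkfb4b, a regulator of glycolytic flux, which read 4.78 and 4.83 at Control 0 hpa, 8.25 and 7.89 at Control 6 hpa, 4.24 and 4.72 at TCDD 0 hpa and 6.14 and 8.91 at TCDD 6 hpa. Its difference at 6 hpa was 3.27 ± 0.77 in controls (limma adjusted p = 0.132) and 3.04 ± 0.77 in TCDD hearts (limma adjusted p = 0.085), neither past the threshold.

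Among 41 measured HIF targets of stress, vessels, iron and matrix, single genes changed in both directions and the list median stayed between -0.14 and 0.10 log2 units in the 7 comparisons plotted. This list, like the others, was chosen with earlier results of these data known, so its counts of calls are no independent support. The gene igfbp1a, a hypoxia-induced insulin-like growth factor binding protein, was the only one of the list to rise by a call from 0 to 6 hpa, in either treatment. It read 5.70 and 6.32 at Control 0 hpa, 9.23 and 8.50 at Control 6 hpa, and 5.21 and 5.84 at Control 7 dpa. In TCDD hearts it read 4.91 and 4.93, then 9.91 and 10.04 at 6 hpa, then 4.698 and 6.17. The 6 hpa arrays of both treatments were thus above all the others.

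From 0 to 6 hpa igfbp1a rose by 2.86 ± 0.46 in controls (7.25-fold, limma adjusted p = 0.0441) and by 5.05 ± 0.46 in TCDD hearts (33.2-fold, limma adjusted p = 0.00746). A second probe set gave 2.60 ± 0.41 and 4.56 ± 0.41. In controls at 6 hpa 1 of 41 rose and 1 fell, against 0.205% and 0.387% of named genes. In TCDD hearts at 6 hpa 1 rose and 1 fell as well, against 0.546% and 1.75%. The rise in controls was called in 4 of 12 refits with 1 array left out and that in TCDD hearts in 10.

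The gene that fell at 6 hpa was tfa, transferrin, by 2.39 ± 0.24 log2 units in controls (limma adjusted p = 0.0197) and by 1.23 ± 0.24 in TCDD hearts (limma adjusted p = 0.0434, called in 1 of 12 refits with 1 array left out). At 7 dpa tfa rose above the unamputated level, by 3.15 ± 0.24 in controls (limma adjusted p = 0.000703) and 3.29 ± 0.24 in TCDD hearts (limma adjusted p = 0.00032). Its arrays read 5.51 and 5.71, 3.16 and 3.28, and 8.93 and 8.58 over the 3 control groups. Like epas1b, tfa had its lowest mean at 6 hpa, but unlike epas1b it had its highest at 7 dpa. The 6 hpa control arrays lie below their arrays' medians of 3.32 and 3.41, where signal above background is not established, so the size of the fall is at best a lower bound.

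At Control 7 dpa 3 of 41 rose, tfa, the chemokine gene cxcl12a by 2.36 ± 0.34 (limma adjusted p = 0.0117) and the lysyl oxidase gene loxa by 2.12 ± 0.18 (limma adjusted p = 0.000907), where 2.06% of named genes were called higher. At TCDD 7 dpa 5 of 41 rose against 2.51%: tfa, the oxidoreductase gene ero1a by 2.22 ± 0.40 (limma adjusted p = 0.0255), the lysyl hydroxylase gene plod1a by 1.59 ± 0.32 (limma adjusted p = 0.0407), loxa by 1.20 ± 0.18 (limma adjusted p = 0.0103) and ccnd1, cyclin D1, named here after its value was seen. The unamputated arrays of loxa read 2.44 to 2.63, below their arrays' lower quartiles of 2.70 to 2.79, and those of ero1a 2.93 to 3.53, near the medians, so that these rises are at best lower bounds. The summed epicardial and fibroblast markers, 9 genes, were 11.98 to 12.4 on the 7 dpa arrays and at most 9.40 on the others, and their part in the rise of the collagen-modifying genes was not tested.

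Between TCDD and control the same list had 1 call, at 7 dpa, where 0.0227% of named genes were called lower. The gene cxcl12a read 6.62 and 6.68 at Control 7 dpa and 3.92 and 4.23 at TCDD 7 dpa, a fall of 2.58 ± 0.34 (limma adjusted p = 0.0386), and its second probe set fell by 2.25 ± 0.23 (limma adjusted p = 0.0208). It was called in 4 of 12 refits with 1 array left out, and the call was lost under quantile normalization (limma adjusted p = 0.0715), with the replicate number as a block (limma adjusted p = 0.071) and with only the arrays compared (limma adjusted p = 0.105). The summed epidermal markers, 10 genes, also differed between these groups, at 9.73 and 11.8 at Control 7 dpa and 12.6 and 12.8 at TCDD 7 dpa. Their part in the fall of cxcl12a was not tested. At 0 hpa none of the 41 was called by limma, with 4 at an unadjusted p below 0.05, where 1.67% of named genes were. The nearest was edn1, endothelin, at 4.42 and 3.73 in controls and 7.07 and 6.39 with TCDD, a difference of 2.66 ± 0.49 (limma adjusted p = 0.587). The classic targets vegfaa, which encodes the vascular growth factor, and epoa, erythropoietin, were called in none of the comparisons shown. The range of epoa was wide, with 5.62 and 8.27 on the 2 TCDD 6 hpa arrays.

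**Figure D3:**
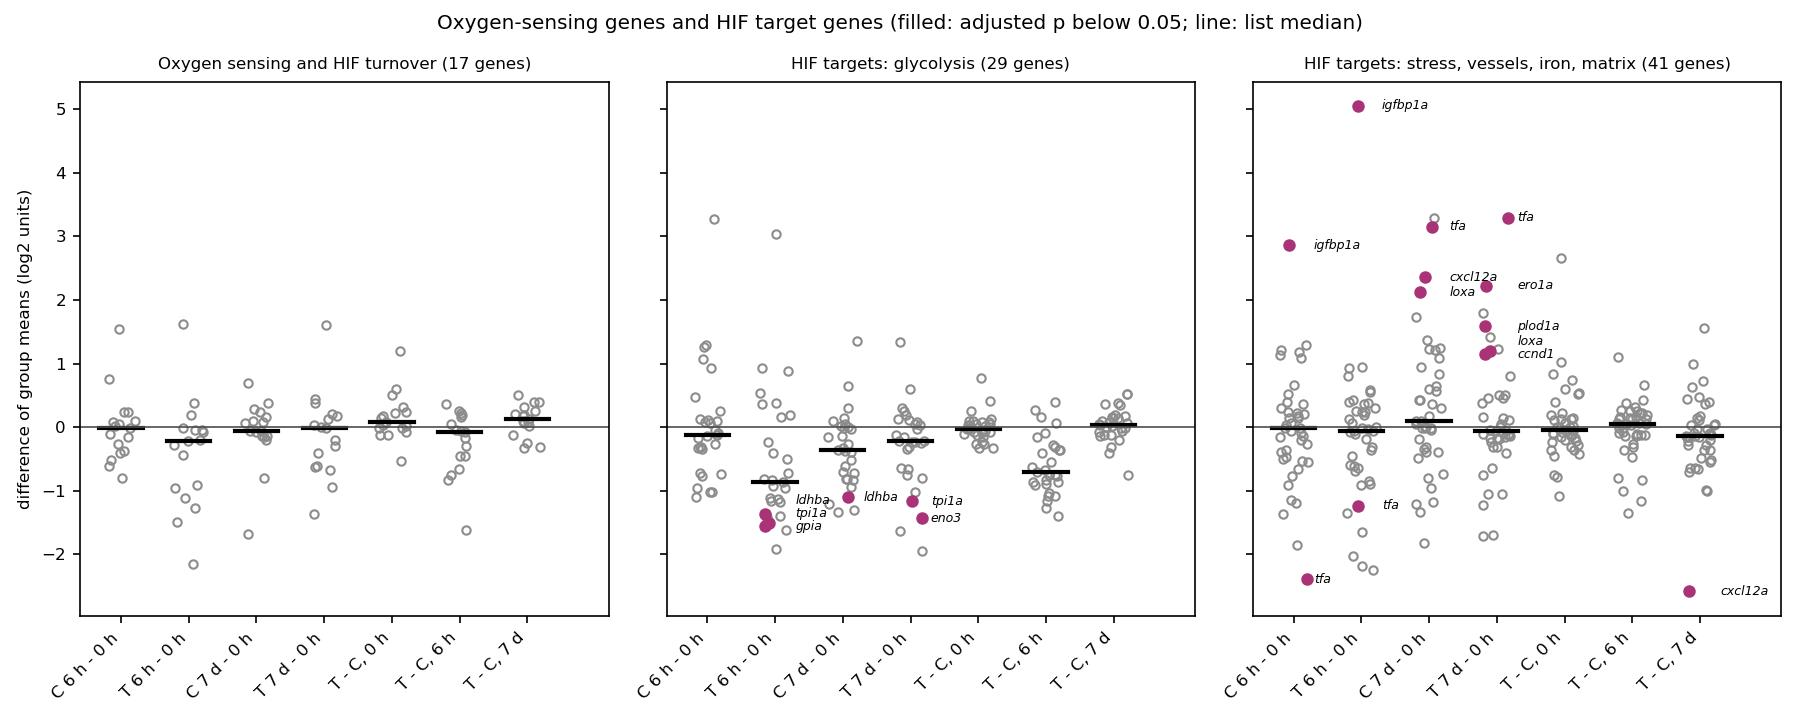
Differences of group means (log2 units) of single genes of oxygen sensing and of 2 groups of HIF targets in 7 comparisons (C, control; T, TCDD). Filled points have a limma adjusted p below 0.05 and are named, open points do not, and black lines are list medians; the median of the glycolytic genes is -0.87 in TCDD hearts at 6 hpa and -0.13 in controls.

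The genes most like epas1b over the 12 arrays were sought among 5318 probe sets of named genes with a range of at least 1 log2 unit. All such probe sets of a gene entered, not only its brightest. The highest Pearson correlations were those of ctdsp1, a small phosphatase of RNA polymerase II's tail, at 0.960, of gfod2 at 0.947, of prkag2a, a subunit of the energy sensor AMPK, at 0.943, of ptprb, the endothelial receptor phosphatase VE-PTP, at 0.941, and of mrpl28, a mitochondrial ribosomal protein gene, at 0.938. Within the 6 control arrays they were 0.951 to 0.989 and within the 6 TCDD arrays 0.916 to 0.992. The arrays share their groups, so these correlations largely restate group means and are given without a test. The probe sets of epas1b and of all these genes have names ending in A1_at, as have those of snx10a and bcl6ab below. The share of such names among the 5318 probe sets is not given here, and the part of the probe set type was not tested.

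Each of the 5 genes was high on the unamputated and low on the 6 hpa arrays, and the fall of its mean from 0 to 6 hpa was smaller than that of epas1b in both treatments. The gene ptprb, for instance, had means of 7.22, 5.56 and 5.83 over the control groups and 6.24, 4.41 and 5.75 over the TCDD groups. The lowest correlations were those of snx10a, a sorting nexin gene, at -0.870, of serpine2, a protease inhibitor gene, at -0.839, and of bcl6ab, a transcriptional repressor gene, at -0.820. Within the family the correlation with epas1b was 0.752 for the brightest probe set of epas1a, 0.450 for hif1ab, -0.118 for hif1al and -0.467 for hif1al2. The other probe sets of epas1a, both dim, were at 0.095 and -0.323. The brightest of epas1a also has a name ending in A1_at, as have those of hif1al and hif1al2, while the dim ones have not.

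**Figure D4:**
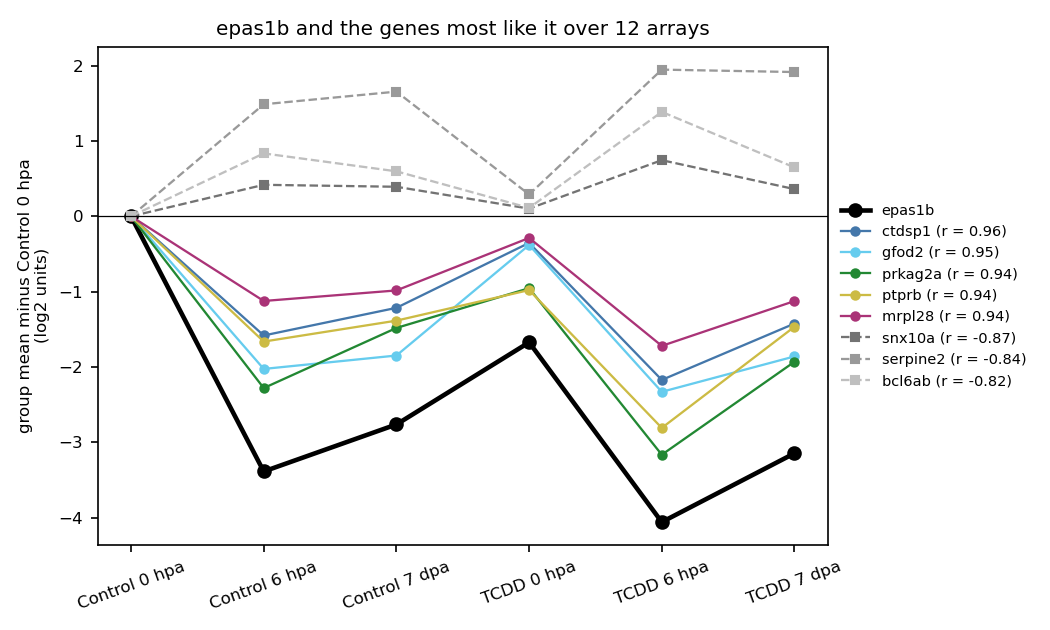
Group means minus the Control 0 hpa mean (log2 units) of epas1b (black) and of the 5 genes most like it and the 3 least like it by Pearson correlation (r) over 12 arrays. The epas1b line reaches -3.39 at Control 6 hpa, and at TCDD 0 hpa it lies at -1.67.

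Cell markers were read beside epas1b, since HIF-2 alpha is abundant in mammalian endothelium. The log2 of the summed intensity of 16 measured endothelial and endocardial markers was 9.43 to 9.63 at Control 0 hpa, 8.90 to 9.004 at Control 6 hpa and 9.10 to 9.53 at Control 7 dpa. With TCDD it was 9.23 to 9.37, 8.33 to 9.07 and 8.995 to 9.16. The sums were thus lower after amputation in TCDD hearts and at Control 6 hpa. They include tal1 and lmo2, which also act in blood formation and rose at TCDD 6 hpa, so they do not read endothelium alone. Of the 16 genes 10 exceeded 5 log2 units on some array, while the defining markers tie1 and tek did not and cdh5 had no probe set of its own.

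The list median of the 16 genes differed from Control 0 hpa by -0.11 log2 units at 6 hpa and -0.01 at 7 dpa, and at TCDD 6 hpa from TCDD 0 hpa by -0.22, but single genes went both ways, from -2.48 to 2.49 at Control 6 hpa. There 1 of 16 was called, where 0.387% of named genes were called lower. This was erg, an endothelial transcription factor gene, which fell by 1.52 ± 0.24 (limma adjusted p = 0.0393). It read 4.89 and 5.41 at Control 0 hpa and 3.48 and 3.77 at Control 6 hpa, the same direction as epas1b. At TCDD 6 hpa 2 of 16 were called, both higher, where 0.546% of named genes were called higher. They were tal1 by 2.95 ± 0.50 (limma adjusted p = 0.0306) and lmo2 by 2.33 ± 0.40 (limma adjusted p = 0.0325), transcription factor genes that also act in blood formation. The flow-responsive gene klf2a rose from 6 hpa to 7 dpa by 2.79 ± 0.53 in controls (limma adjusted p = 0.0227) and by 3.01 ± 0.53 in TCDD hearts (limma adjusted p = 0.0134), when tal1 and lmo2 fell in both treatments and plvapb, a gene of endothelial pores, rose in controls. The receptor gene kdrl, a defining endothelial marker, was 7.90 and 8.25 at Control 0 hpa, 7.16 and 7.19 at Control 6 hpa, and 7.12 and 6.37 at Control 7 dpa. The TCDD hearts had 7.77 and 7.54 at 0 hpa, 5.19 and 6.84 at 6 hpa, and 7.24 and 5.97 at 7 dpa. Its differences from 0 hpa, -0.90 and -1.33 in controls and -1.65 and -1.05 in TCDD hearts, each ± 0.55, did not pass (limma adjusted p of 0.171 to 0.723). At 0 hpa kdrl differed with TCDD by -0.42 ± 0.55, and the 16 genes had a median difference of -0.04. The summed cardiomyocyte markers, 11 genes, were 15.1 to 15.3 in unamputated and 14.4 to 15.02 in amputated hearts, and the summed leukocyte markers, 14 genes, were 11.6 to 13.04 at 7 dpa and at most 10.9 on the other arrays. The summed epidermal markers, 10 genes, were 12.6 to 12.8 at TCDD 7 dpa, 9.73 and 11.8 at Control 7 dpa and at most 8.71 in the other groups. The summed erythrocyte markers, 9 genes, were 13.9 to 14.4 on the 6 hpa arrays and 12.7 to 13.5 on the others. The group mean of epas1b was lowest at 6 hpa in each treatment, though its 6 hpa arrays overlapped those of 7 dpa. The part of any of these markers in the level of epas1b was not tested.

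The authors' deposited tables rank epas1b first of 15617 probe sets by t score in their comparison of Control 0 hpa with a class called Rest. In the authors' deposited table the class mean was 295 and the Rest mean 22.2, a 13.3-fold difference, with a permutation p of 0.140 and an adjusted p of 0.378 from 1000 permutations. The brightest epas1a probe set had the same permutation p and adjusted p there at a t score of 1.43, against 86.4 for epas1b. These p-values therefore do not separate the 2 genes. For all 15617 probe sets the Rest mean of that table equalled, within 0.1%, the average of the Control 6 hpa and TCDD 6 hpa class means of the 2 companion tables, so Rest there stands for the amputated 6 hpa hearts of both treatments. The same check held for the other 2 tables of 6 hpa, in which Rest averages Control 0 hpa with the other 6 hpa group. In the authors' deposited table for TCDD 6 hpa, epas1b had a class mean of 18.0 and a Rest mean of 161, with a permutation adjusted p of 0.0352. The gene hif1ab had the same adjusted p there, at a class mean of 233 and a Rest mean of 365. Both adjusted values come from the same permutation p of 0.001996. The share of all probe sets at that value is not given here, so it does not single out these genes. These comparisons use control arrays and repeat the choice of the gene, so their p-values are no test of epas1b. The columns of both 6 hpa tables name their class with a 7 instead of a 6, so that its group rests on the name of the table. The class means of these tables also differ from the means of the deposited arrays, and the Rest class of the 7 dpa tables was not matched to groups. TCDD 0 hpa has no table among the 5 used here.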

How the data were processed

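Per the submitters' processing notes the deposited intensity of each probe set on an array comes from RMA, which corrects background, equalises arrays and summarises probes. Its software, version and genome build were not given in these sources. The deposited values are linear intensities, and log2 of them was used throughout. In 5 further tables the authors deposited their own GenePattern comparisons, per the file headers: a score (a t statistic), a permutation p-value, raw and Benjamini-Hochberg adjusted, and a fold of class means written larger over smaller.

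Of 15617 probe sets, 115 controls were left out, and dim values were kept. Platform symbols, updated through the RefSeq table, named a single gene for 10795 probe sets, more than 1 gene for 135 and no gene for 4572, and RefSeq held 10711. Genes of the lists were read at their brightest probe set. No sequences were used here.

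The 12 arrays entered 1 limma (version 3.58.1, R 4.3.3) model of 6 group means without a replicate block, with 6 residual degrees of freedom and 2.87 from eBayes. Benjamini-Hochberg adjustment ran over all 15502 probe sets in each comparison, and calls are below 0.05. Errors are standard errors for differences and standard deviations of 2 arrays for levels. The number of arrays limits the precision: the median standard error was 0.243 log2 units, and an exact permutation test of 2 against 2 cannot go below 0.333. Each array pools 10 hearts per the labels, so p-values measure only the spread between pools, which may be partly technical.

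The members and the 11 gene lists were chosen with earlier results of these data known. Counts of a list set beside the share of all named genes are therefore no independent support. Named genes are every member probe set, a fixed set of pathway genes, and per list and comparison the called genes with the largest change, 4 at most, or else the pair with the smallest p. Likeness to epas1b is the Pearson correlation over 12 arrays, 5 highest and 3 lowest. Alternatives were quantile normalization, median centring, dropping the dimmest 25% of probe sets, trend and robust eBayes, a replicate block, the compared groups' arrays alone, and leaving out each array. The model was tested on simulated data. Plots used matplotlib 3.10.9.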

Additional observations from a re-analysis of the deposited data

How the results depend on the processing

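Of 45 values of single genes, all kept their direction under 5 of 6 alternatives and 44 under quantile normalization; calls were lost most often, for 17 values, when only the arrays of the groups compared were used. The fall of epas1b in TCDD hearts at 6 hpa was -2.54 after median centring and -2.386 with only those arrays, uncalled in both, and -2.77 to -2.002 with 1 array left out. The hif1ab difference between TCDD 7 dpa and TCDD 6 hpa turned to -0.258 under quantile normalization, and with 1 array left out ran from -0.34 to 0.764, at -0.34 without TCDD 6 hpa replicate 1 and -0.056 without TCDD 7 dpa replicate 1. Under quantile normalization the hif1ab difference of TCDD 6 hpa from TCDD 0 hpa was -0.01, against -0.58 in the main fit. The cause of these moves was not tested.

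Counts of called genes moved as follows. The share of all named genes called under each alternative is not given, so these moves do not single out the lists. Under quantile normalization the sensing list had 2 at TCDD 6 hpa; the glycolytic list had 1 at Control 6 hpa and 2 at Control 7 dpa; the stress list had 5 at Control 7 dpa and 0 for TCDD against control at 7 dpa. Without the dimmest probe sets, where fewer are tested, the sensing list had 1 and the stress list 4 at TCDD 6 hpa, and the glycolytic list 2 at Control 7 dpa. After centring the glycolytic list had 0 at Control 7 dpa and 0 at TCDD 7 dpa, and the stress list 1 at each 6 hpa group and 3 at TCDD 7 dpa. With trend and robust settings the glycolytic list had 0 at Control 7 dpa, 1 at TCDD 6 hpa and 0 at TCDD 7 dpa, and the stress list 7 at Control 7 dpa and 2 for TCDD at 7 dpa. With only the arrays compared the glycolytic list had 1 at Control 6 hpa, 0 at Control 7 dpa, 0 at TCDD 6 hpa and 1 at TCDD 7 dpa, and the stress list 1, 0 (TCDD 6 hpa), 8 (TCDD 7 dpa) and 0 for TCDD at 7 dpa. Fewer samples leave fewer degrees of freedom there.

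With the replicate number as a block, 39 of 45 gene values kept their side of the threshold, and the stress list had 1 call at TCDD 6 hpa and 0 for TCDD at 7 dpa. The numbers were not taken to pair the arrays: deviations of same-numbered arrays correlated at -0.378 to 0.563 over 15 pairs of groups, above 0.1 in 8. The acta1 3′ minus 5′ difference was higher on replicate 1 than on replicate 2 in 6 of 6 groups, as a hint from the data and not from the design.

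With 1 array left out, the sensing list had 0 to 5 calls at TCDD 6 hpa, 0 to 1 at TCDD 7 dpa and 0 to 1 for TCDD at 6 hpa. The glycolytic list had 0 to 3 at Control 6 hpa, 0 to 3 at Control 7 dpa, 0 to 17 at TCDD 6 hpa, 0 to 3 at TCDD 7 dpa and 0 to 6 for TCDD at 6 hpa. The stress list had 0 to 2, 3 to 7, 0 to 10 and 1 to 8 in the same order of groups, and 0 to 1 for TCDD at 6 hpa and at 7 dpa. The upper ends at TCDD 6 hpa all come from leaving out replicate 2 of that group, and a lone array is then assumed to vary like the other groups. That lone array is replicate 1, which stands apart in its acta1 3′ minus 5′ difference, so these upper ends describe that array. The share of all named genes called in each refit is not given here. A move of a list therefore cannot be told from a move over all genes.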
